A study of Homo sapiens with 16 samples.

Results

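The SR splicing factors are RNA-binding proteins with a domain rich in arginine and serine, and the 10 described here are SRSF1, SRSF2, SRSF3, SRSF4, SRSF5, SRSF6, SRSF7, SRSF9, SRSF10 and SRSF11. They were taken by gene symbol from the tables of both cell lines, which list 113 transcripts for them out of 251295 transcripts of 61906 genes. The samples came from 2 established human cell lines, HT-1080, a fibrosarcoma line, and HEK-293T, an embryonic kidney line with the large T antigen of SV40. In each line, cells received 20 nM of siHNRNPH1, a small interfering RNA against the RNA-binding protein HNRNPH1, or of siNegative, a negative control, and RNA was taken 48 h later. The 4 groups were therefore HEK-293T with siNegative, HEK-293T with siHNRNPH1, HT-1080 with siNegative and HT-1080 with siHNRNPH1, each with 3 biological replicates as short-read RNA-seq libraries (12 in all) and 1 pool of replicates sequenced as full-length cDNA (IsoSeq). Both arms went through the same transfection, so the control cells also carried an siRNA, and a single siRNA label stands for the depletion. No allele or drug distinguished the groups within a line.

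SR proteins bind exonic and intronic motifs, recruit the splicing machinery and help to export and translate mRNA. Many of their genes are known to limit their own output: when the protein is plentiful, a so-called poison exon with an early stop codon is included, or an intron is kept, and the message is degraded by nonsense-mediated decay or held in the nucleus. HNRNPH1 is a nuclear protein that binds runs of G and regulates the splicing of many transcripts. SR proteins are themselves switched by kinases (the SRPK and CLK families) that phosphorylate the arginine and serine domain.

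The targeted gene was lower in every siHNRNPH1 library. HNRNPH1 stood at 1104.6 to 1120.9 CPM (estimated counts of the gene per 1000000 counts of the library) in HEK-293T with siNegative and at 234.1 to 394.3 with siHNRNPH1. In HT-1080 it stood at 605.8 to 634.6 and 228.5 to 231.5 CPM. The library totals were 107745653 to 121026216 estimated counts in HEK-293T and 27304426 to 32653160 in HT-1080, so the HT-1080 values rest on fewer reads. Of the markers listed for each line, NEFM and INA were at 251.5 to 490.2 and 18.4 to 35.5 CPM in HEK-293T and at most 0.0330 and 0.0366 in HT-1080, whereas NEFL was at 65.8 to 112.1 and 79.9 to 111.3 CPM, alike in both, and PAX2 was low in both (at most 2.20 CPM). VIM, CD44, PLAU and MMP14 ranged from 1495.8 (MMP14) to 4354.5 CPM (VIM) in the HT-1080 libraries, and TGFBI was at most 0.0516 CPM in HEK-293T. Replicate 1 of HEK-293T with siHNRNPH1 stood apart: across genes its log2 CPM correlated with its 2 fellow replicates at 0.962 to 0.965, while those 2 correlated at 0.999. The HEK-293T gene changes, and the calls that depend on it, are therefore given with and without that library, which is also the one in which LIN28B (65.7 CPM) and the SR genes SRSF1, SRSF4, SRSF5, SRSF6, SRSF10 and SRSF11 were lowest. In RNA from a whole culture, fewer cells of a kind and less RNA per cell cannot be told apart.

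Most SR genes were lower after siHNRNPH1 in HT-1080, and SRSF7, SRSF3, SRSF2 and SRSF1 were lowered most. In that line 8 of the 10 genes fell (edgeR's quasi-likelihood test, Benjamini-Hochberg (BH) adjusted p under 0.05) and none of the 10 rose. Their median log2 fold change, siHNRNPH1 over siNegative, was -0.41, beside 0.01 over the 16145 genes tested. The background was broad: 65.3% of all genes tested in HT-1080 passed the same threshold, and 32.6% passed it as lower. In HEK-293T 0 of the 10 passed with the 6 libraries together, where 10.0% of all genes did (4.88% as lower). The same count was 0 by DESeq2, and 2 genes, SRSF1 and SRSF5, had an unadjusted p under 0.05 in edgeR. The share of all genes at that unadjusted threshold was not taken. Without the library that stood apart, 9 of the 10 passed in HEK-293T, all 9 lower, but so did 61.8% of all genes (31.3% as lower). Their median change was then -0.14, beside 0.00 for all genes, which is a smaller change than in HT-1080.

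**Figure D1:**
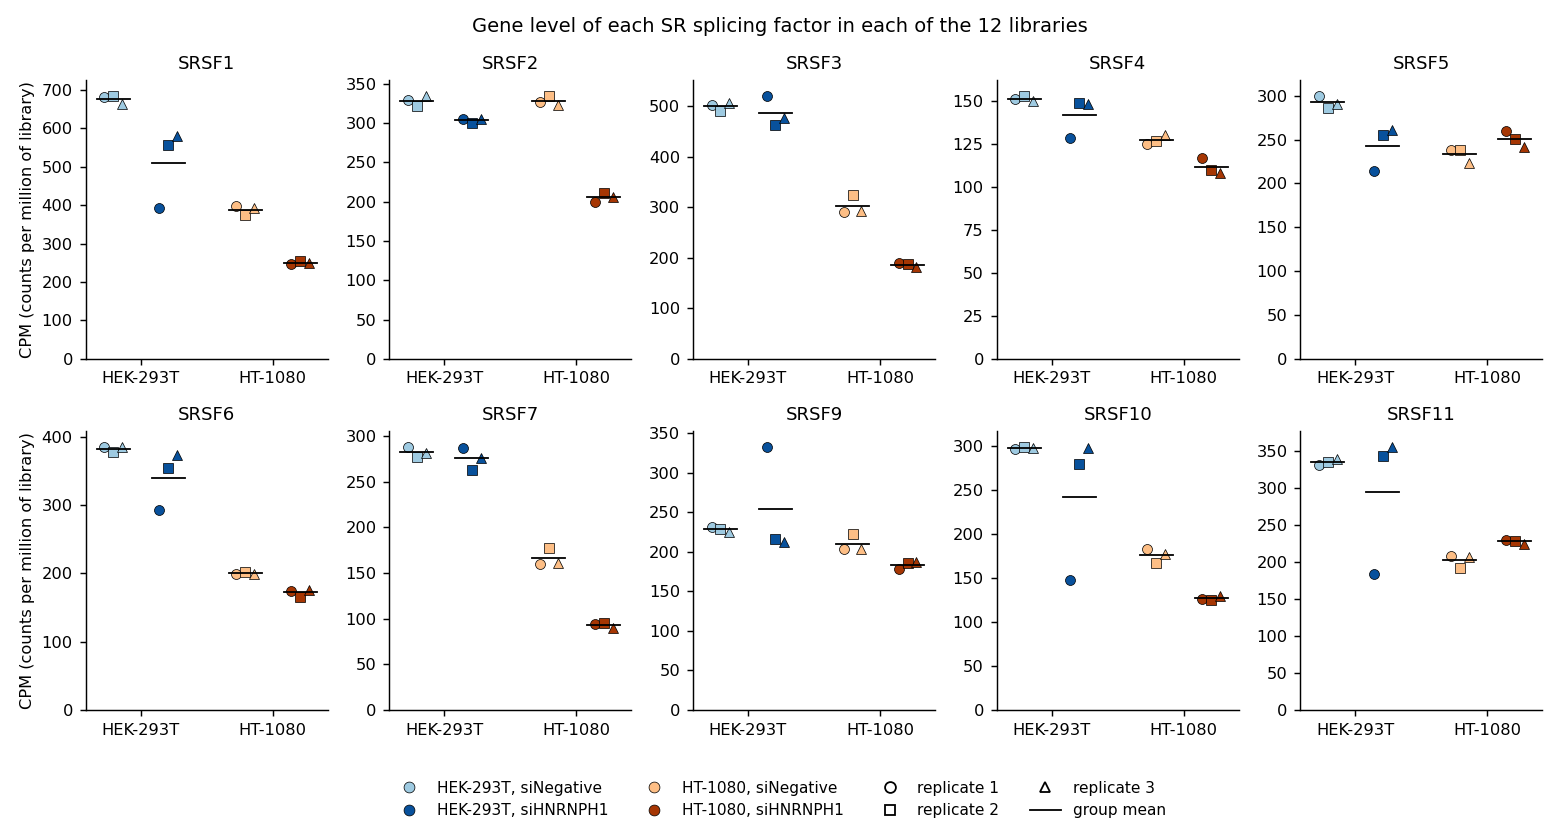
Gene level (CPM, linear axis from 0) of each of the 10 SR genes in each of the 12 libraries, coloured by line and siRNA, with a symbol per replicate number and a bar for the group mean. In HT-1080 the SRSF7 groups lie apart, at 159.6 to 177.0 CPM with siNegative and 89.6 to 95.4 with siHNRNPH1. SRSF5 and SRSF11 lie higher with siHNRNPH1 in that line, and neither passed the threshold. In HEK-293T replicate 1 of siHNRNPH1 often lies away from its fellows, as for SRSF9 at 332.7 CPM.

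SRSF1, the founding member of the family and a factor in both splicing and translation, was at 398.9, 373.5 and 393.0 CPM in the HT-1080 siNegative libraries and at 248.0, 254.1 and 249.5 after siHNRNPH1. The groups did not overlap, and the log2 fold change was -0.70 ± 0.04 (SE, n = 3 per group; edgeR BH-adjusted p = 4.95e-07). In HEK-293T it was at 682.4, 685.8 and 662.8 CPM against 393.3, 558.1 and 579.6. Every siHNRNPH1 library lay below every siNegative library, but the change of -0.44 ± 0.16 did not pass (edgeR BH-adjusted p = 0.144, n = 3 per group). Without replicate 1 of siHNRNPH1 it was -0.31 ± 0.03 with an edgeR BH-adjusted p of 3.08e-09. SRSF1 was thus the member with the largest decrease in HEK-293T under either treatment of that library.

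SRSF3, the smallest SR protein, and SRSF7 link splicing to mRNA export. In HT-1080 SRSF7 went from 159.6, 177.0 and 161.2 CPM to 93.9, 95.4 and 89.6, a fall of 44.0% in the mean and a log2 fold change of -0.90 ± 0.06 (edgeR BH-adjusted p = 5.31e-07, n = 3 per group). It was the largest decrease among the 10. SRSF3 went from 289.7, 323.4 and 293.1 to 188.8, 187.7 and 182.1 CPM, with a log2 fold change of -0.77 ± 0.05 (edgeR BH-adjusted p = 1.41e-06, n = 3 per group). Neither gene's groups overlapped in HT-1080. In HEK-293T both overlapped: SRSF7 was at 288.1, 277.2 and 281.6 against 286.8, 263.1 and 276.0 CPM, and SRSF3 at 501.5, 490.9 and 506.8 against 520.6, 462.8 and 476.1. Their HEK-293T log2 fold changes were both -0.06 (SE 0.12 for SRSF7 and 0.13 for SRSF3; edgeR BH-adjusted p = 0.784 and 0.793). Leaving out replicate 1 of siHNRNPH1 gave -0.12 (edgeR BH-adjusted p = 0.00115) for SRSF7 and -0.15 (edgeR BH-adjusted p = 9.04e-05) for SRSF3.

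SRSF2, an SR protein that stays in the nucleus, was at 326.4, 334.8 and 323.7 CPM in HT-1080 with siNegative and at 199.5, 211.3 and 206.2 with siHNRNPH1. Its log2 fold change of -0.74 ± 0.04 had an edgeR BH-adjusted p of 4.14e-07 (n = 3 per group), and the groups lay far apart. In HEK-293T it was at 329.1, 321.8 and 335.2 against 304.8, 300.6 and 305.4 CPM. Here too the groups did not overlap, and replicate 1 of siHNRNPH1 lay with its fellows. The HEK-293T change was -0.14 ± 0.11 (edgeR BH-adjusted p = 0.468), and -0.17 ± 0.03 without that replicate (edgeR BH-adjusted p = 1.45e-05).

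SRSF4, SRSF5 and SRSF6 form a branch of the family. In HT-1080 SRSF4 fell by 0.26 and SRSF6 by 0.28 on the log2 scale (SE 0.05 and 0.04; edgeR BH-adjusted p = 0.000734 and 0.000202, n = 3 per group). SRSF5 did not pass in HT-1080: its log2 fold change was 0.04 ± 0.05 (edgeR BH-adjusted p = 0.520), although its CPM of 238.2, 237.8 and 223.5 against 259.4, 251.0 and 241.8 did not overlap. CPM uses the library total and the fold change uses TMM scaling, which is why the pair can differ a little. In HEK-293T SRSF5 was the most lowered of the branch. It was at 300.3, 286.6 and 290.8 CPM against 213.7, 254.8 and 260.9, without overlap, with a log2 fold change of -0.30 ± 0.12 (edgeR BH-adjusted p = 0.173) and of -0.24 ± 0.03 without replicate 1 of siHNRNPH1 (edgeR BH-adjusted p = 2.62e-07). With the 6 libraries SRSF6 and SRSF4 were at -0.20 and -0.12 in HEK-293T and did not pass (edgeR BH-adjusted p = 0.358 and 0.527). They changed by -0.13 (edgeR BH-adjusted p = 0.000615) and -0.08 (edgeR BH-adjusted p = 0.0156) when that replicate was left out.

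SRSF9, an SR protein with a short arginine and serine domain, fell by 0.26 on the log2 scale in HT-1080 (SE 0.05, n = 3 per group; edgeR BH-adjusted p = 0.00155). It did not pass when the 12 libraries were fitted together (edgeR BH-adjusted p = 0.323). In that fit SRSF9 was at -0.27 in HT-1080, with 1 spread shared by both lines. In HEK-293T its direction rested on 1 library: it was at 231.3, 229.1 and 225.0 CPM against 332.7, 216.3 and 212.7. Its log2 fold change there was 0.14 ± 0.23 with that library and -0.15 ± 0.03 without it (edgeR BH-adjusted p = 0.743 and 9.27e-05). SRSF10, known as a splicing repressor when dephosphorylated in mitosis or heat shock, went from 182.5, 166.8 and 177.4 CPM to 126.3, 125.0 and 129.1 in HT-1080. That was a log2 fold change of -0.54 ± 0.04 (edgeR BH-adjusted p = 3.88e-06, n = 3 per group). In HEK-293T SRSF10 was at 296.4, 298.7 and 297.6 against 147.3, 279.4 and 297.4 CPM, so that only the first of these siHNRNPH1 libraries lay far below the controls. Its HEK-293T change was -0.34 ± 0.25 with that library and -0.10 ± 0.03 without it (edgeR BH-adjusted p = 0.446 and 0.00586). SRSF11, a more distant relative found with the U2 machinery, was at 208.8, 192.3 and 206.8 CPM in HT-1080 with siNegative and at 230.4, 229.2 and 225.0 with siHNRNPH1. Its log2 fold change of 0.10 ± 0.04 narrowly missed the threshold (edgeR BH-adjusted p = 0.0592) and passed it without TMM scaling (0.17; edgeR BH-adjusted p = 0.00777), and without siNegative replicate 2 (0.07; edgeR BH-adjusted p = 0.0158). In HEK-293T SRSF11 changed by -0.22 ± 0.24, and by 0.01 ± 0.03 without replicate 1 of siHNRNPH1 (edgeR BH-adjusted p = 0.605 and 0.884).

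**Figure D2:**
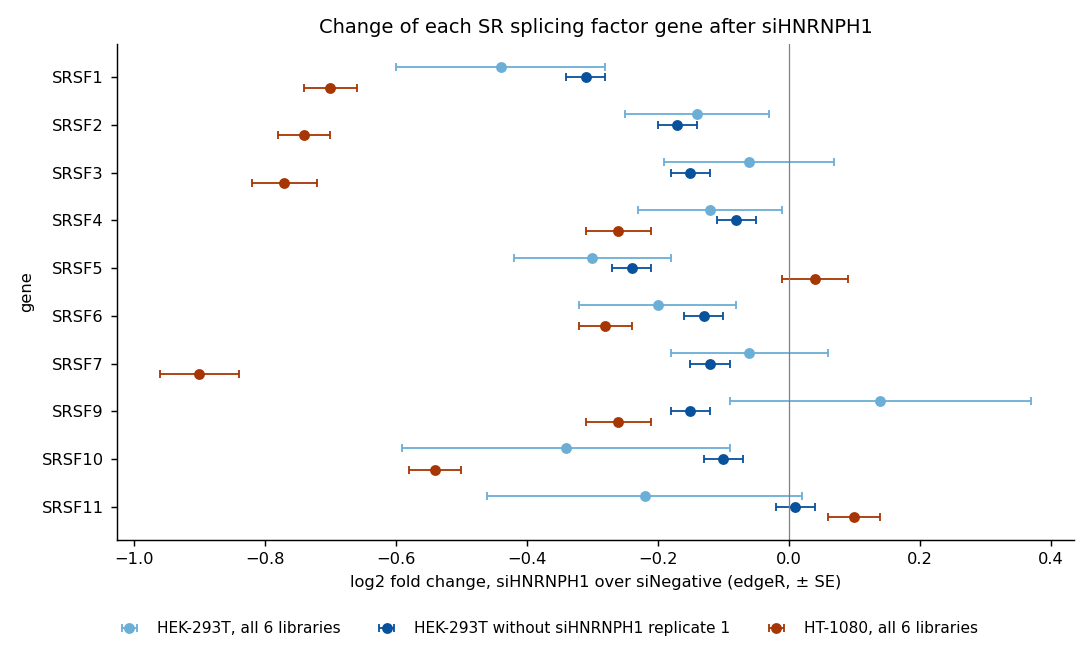
Log2 fold change of each SR gene, siHNRNPH1 over siNegative, with a standard error derived from the edgeR test, for HEK-293T with 6 libraries, HEK-293T without replicate 1 of siHNRNPH1, and HT-1080. SRSF7 (-0.90), SRSF3 (-0.77), SRSF2 (-0.74) and SRSF1 (-0.70) lie farthest to the left in HT-1080, while the HEK-293T points without that replicate lie between -0.31 and 0.01.

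The difference in response between the lines was tested directly, as an interaction over the 12 libraries. It passed for 3 of the 10 genes, SRSF2, SRSF3 and SRSF7, each with a lower log2 fold change in HT-1080. Over all genes tested 19.0% passed. HT-1080 minus HEK-293T, the difference in log2 fold change was -0.92 ± 0.13 for SRSF7, -0.78 ± 0.14 for SRSF3 and -0.68 ± 0.12 for SRSF2 (edgeR BH-adjusted p = 0.000883, 0.00355 and 0.00219, n = 3 per group). Without replicate 1 of HEK-293T siHNRNPH1, 8 of the 10 passed, against 49.0% of all genes, and 7 of those 8 were lower in HT-1080. The eighth, SRSF5, differed the other way, by 0.23 ± 0.06 (edgeR BH-adjusted p = 0.00613). SRSF9 (-0.16, edgeR BH-adjusted p = 0.0507) and SRSF11 (0.05, edgeR BH-adjusted p = 0.541) did not pass in that fit.

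Which transcripts made up each gene changed most at SRSF10. The share of a transcript is its estimated count as a percent of the gene's sum, and usage was tested with limma's diffSplice, in which a usage log2 change compares a transcript with the others of its gene. In HT-1080, 8 of 87 SR transcripts tested passed (6.54% of the 60045 transcripts tested did): 5 of SRSF10, 2 of SRSF11 and 1 of SRSF6. In HEK-293T 2 of 98 passed (2.43% of all transcripts tested), 1 of SRSF10 and 1 of SRSF5, and without replicate 1 of siHNRNPH1 26 of 101 passed (14.7% of all). The files give no class for a transcript, so identifiers stand alone here, without saying which of them hold a poison exon. Transcripts that share exons also share reads, so the shares are estimates by RSEM.

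The SRSF10 transcript ENST00000344989.10 rose in share in both lines. It was the single SR transcript that passed in both with every library in. In HT-1080 it made up 5.49%, 3.45% and 4.62% of the gene with siNegative and 12.3%, 12.8% and 11.9% with siHNRNPH1 (usage log2 change 1.58, limma BH-adjusted p = 1.58e-10). In HEK-293T it made up 14.0%, 12.9% and 13.1% with siNegative and 51.6%, 28.6% and 28.4% with siHNRNPH1 (usage log2 change 1.90, limma BH-adjusted p = 0.0110). The groups lay apart in each line, and replicate 1 of HEK-293T siHNRNPH1 was the highest. Without that replicate the usage log2 change was 1.35 (limma BH-adjusted p = 6.08e-26). The HEK-293T call was lost when any 1 siNegative library was left out (usage log2 changes of 1.90 to 1.99, limma BH-adjusted p = 0.161 to 0.207), and under edgeR's diffSpliceDGE (0.93, adjusted p = 0.501). An exact permutation test of these percentages, two-sided, gave p = 0.1 in each line, the smallest that 3 against 3 libraries allow. In absolute level the transcript went from 7.99 ± 2.14 to 15.6 ± 0.346 CPM in HT-1080 and from 39.6 ± 1.60 to 80.2 ± 4.22 CPM in HEK-293T (mean ± SD, n = 3), while the gene as a whole was lower in HT-1080.

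The share of ENST00000343255.9, another main SRSF10 transcript, moved the opposite way. In HT-1080 it was 25.9%, 26.3% and 25.3% with siNegative and 12.7%, 13.4% and 14.3% with siHNRNPH1, a shift of -12.4 points and the largest of any named SR transcript in that line (usage log2 change -1.17, limma BH-adjusted p = 1.34e-10). In HEK-293T it was 16.9%, 17.5% and 17.5% against 17.1%, 9.43% and 8.97%. The first of these siHNRNPH1 libraries lay among the controls in share, and the call depended on it: the usage log2 change was -0.44 with it and -1.06 without it (limma BH-adjusted p = 0.827 and 1.11e-17). In CPM that library lay with its fellows, since the HEK-293T level went from 51.5 ± 1.21 to 26.1 ± 0.80 (mean ± SD, n = 3); in HT-1080 it went from 45.4 ± 1.82 to 17.1 ± 1.29. ENST00000492112.3 lost share in HT-1080, from 22.9% ± 0.569 to 18.4% ± 0.768 (usage log2 change -0.43, limma BH-adjusted p = 0.0106). That call was lost under diffSpliceDGE (-0.22, adjusted p = 1.00) and without siHNRNPH1 replicate 1 or 3 (limma BH-adjusted p = 0.0902 and 0.0796). In HEK-293T it was at 33.1%, 31.7% and 32.4% against 12.8%, 21.4% and 22.2%, without overlap, and passed there without replicate 1 (limma BH-adjusted p = 2.25e-18) but not with it (0.613).

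ENST00000453840.7 gained share in HT-1080, from 13.1%, 17.6% and 14.5% to 22.6%, 21.3% and 23.2% (usage log2 change 0.66, limma BH-adjusted p = 6.08e-05). Under diffSpliceDGE the change was 0.40 and did not pass (adjusted p = 0.373). In HEK-293T its share was 13.3%, 14.3% and 13.8% against 11.1%, 13.6% and 13.3%, and it passed neither with replicate 1 nor without it (limma BH-adjusted p = 0.969 and 0.528). Its level in HT-1080 was 26.3 ± 2.82 against 28.4 ± 1.71 CPM with overlapping groups (mean ± SD, n = 3). A minor transcript, ENST00000484146.6, which was named after its values were seen, rose from 4.17% ± 0.341 to 6.29% ± 0.232 in HT-1080 (limma BH-adjusted p = 0.0294). That call held in 2 of the 6 fits with 1 library left out. ENST00000485841.5 had overlapping groups in HT-1080, at 17.3% ± 2.31 against 18.4% ± 0.264 (limma BH-adjusted p = 0.823). Whether the SRSF10 shifts differed between the lines was not tested.

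**Figure D3:**
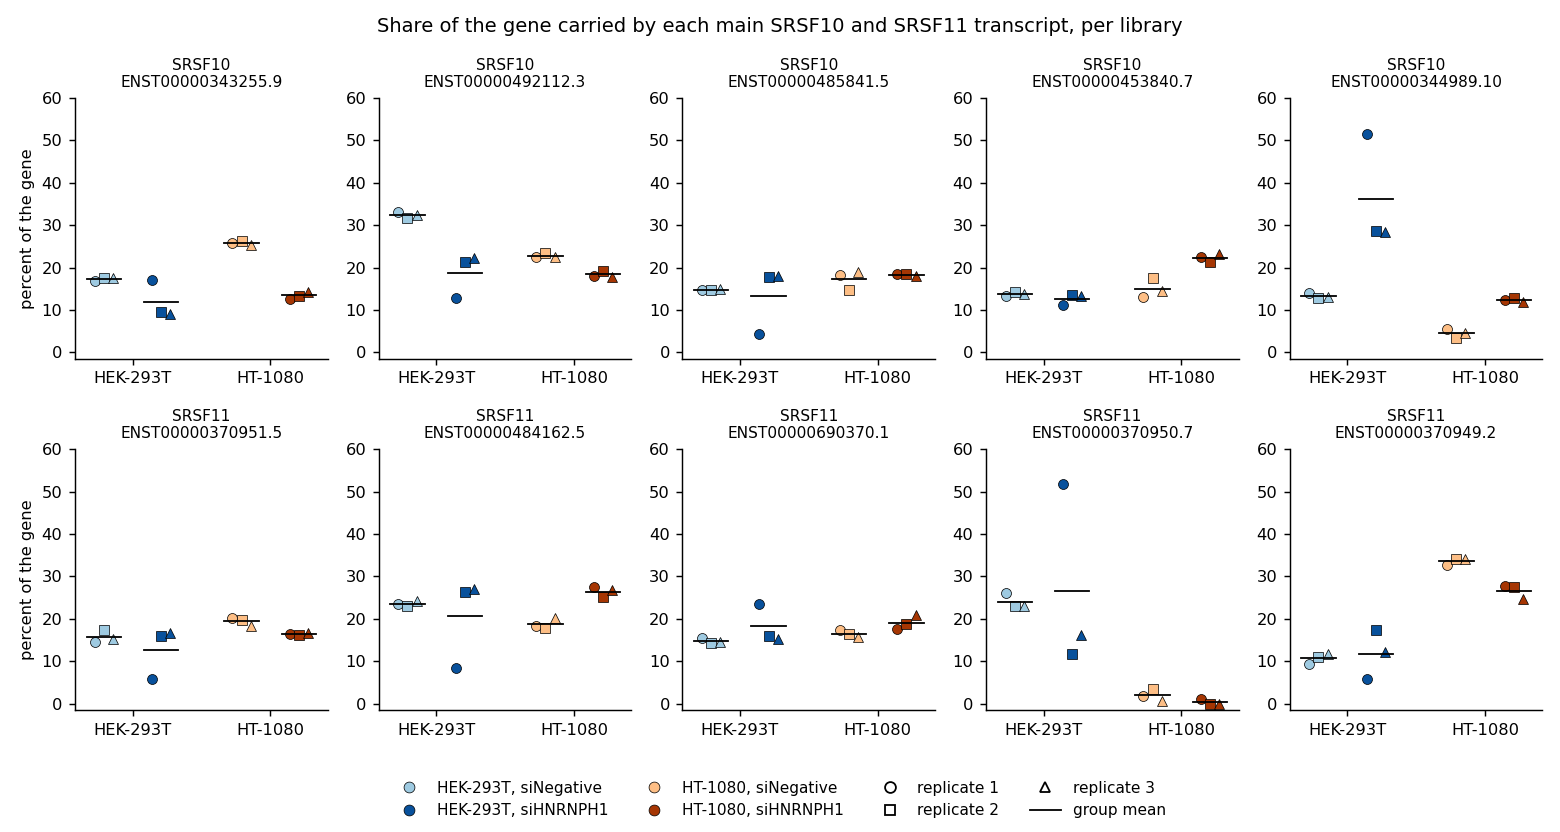
Percent of the gene's estimated count carried by the 5 main transcripts of SRSF10 (top) and of SRSF11 (bottom) in each of the 12 libraries, with a bar for each group mean. The share of ENST00000344989.10 is higher with siHNRNPH1 in both lines (to 12.3% in HT-1080 and 36.2% in HEK-293T on average), and ENST00000370950.7 of SRSF11 shows replicate 1 of HEK-293T siHNRNPH1 at 51.8%, above every other library.

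At SRSF11, 2 transcripts passed in HT-1080 and went opposite ways, though neither passed under diffSpliceDGE. ENST00000484162.5 was at 18.3%, 17.9% and 20.3% with siNegative and at 27.4%, 25.1% and 26.8% with siHNRNPH1 (usage log2 change 0.57, limma BH-adjusted p = 0.00109; 0.34 with an adjusted p of 0.401 under diffSpliceDGE). ENST00000370949.2 was at 32.8%, 34.2% and 34.2% against 27.8%, 27.4% and 24.7% (usage log2 change -0.51, limma BH-adjusted p = 0.00151; -0.23 with an adjusted p of 0.954 under diffSpliceDGE). The latter call was also lost without siHNRNPH1 replicate 3 (limma BH-adjusted p = 0.0983). Neither pair of groups overlapped. In HEK-293T ENST00000370949.2 was at 9.45%, 11.0% and 11.7% against 5.78%, 17.4% and 12.2%; its usage log2 change there was 0.26 (limma BH-adjusted p = 0.937), and leaving out replicate 1 gave 0.50 (limma BH-adjusted p = 0.000336), opposite in sign to HT-1080. The line difference in starting point was also wide for ENST00000370950.7, at 24.1% ± 1.68 in HEK-293T and 1.99% ± 1.35 in HT-1080 with siNegative. That transcript stood at 51.8%, 11.8% and 16.3% in the HEK-293T siHNRNPH1 libraries, so replicate 1 lay above the controls and the other two below (usage log2 change 0.02, limma BH-adjusted p = 0.996, and -0.99 with an adjusted p of 4.22e-12 without it).

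The genes with the largest decreases showed no usage call in HT-1080. No SRSF1, SRSF2, SRSF3 or SRSF7 transcript passed diffSplice in that line, of 8, 8, 6 and 7 tested. Over all transcripts tested in HT-1080 6.54% passed, so the lack of calls among so few says little about these genes. There 19 of the 87 SR transcripts tested had an unadjusted diffSplice p under 0.05, and the same share over all transcripts was not taken. SRSF7 ENST00000409276.5 had the largest shift of its gene there, at 45.0%, 48.8% and 49.4% against 43.8%, 47.0% and 41.7%, with overlapping groups (limma BH-adjusted p = 0.501). Its level went from 79.2 ± 7.26 to 41.1 ± 3.70 CPM, that of ENST00000313117.11 from 36.3 ± 2.43 to 21.4 ± 0.750, and that of ENST00000443213.5 from 30.8 ± 1.13 to 18.3 ± 1.21 (mean ± SD, n = 3). The lower SRSF7 level was thus seen in each of its 3 main transcripts. For SRSF3, ENST00000620389.1 was at 7.41%, 11.7% and 6.73% against 11.4%, 12.3% and 11.9% (limma BH-adjusted p = 0.0980), and its level of 26.3 ± 9.96 against 22.1 ± 0.780 CPM overlapped, unlike that of the other two main SRSF3 transcripts. ENST00000373715.11 went from 150.4 ± 3.02 to 89.0 ± 5.29 CPM and ENST00000620941.1 from 84.0 ± 6.76 to 46.1 ± 1.98 (mean ± SD, n = 3). The largest SRSF1 shift in HT-1080 was that of ENST00000582730.6, from 61.4%, 66.5% and 60.9% to 58.4%, 61.3% and 58.9% (limma BH-adjusted p = 0.0777). SRSF2 ENST00000392485.2 was at 10.5%, 9.91% and 11.6% against 11.8%, 13.6% and 10.3% (limma BH-adjusted p = 0.576).

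In HEK-293T the same genes did show shifts once replicate 1 of siHNRNPH1 was left out. SRSF7 ENST00000409276.5 was at 42.1%, 43.2% and 42.8% against 37.6%, 33.4% and 31.8%, apart from the controls in each library (limma BH-adjusted p = 0.302 with that replicate and 1.55e-05 without it). ENST00000313117.11 moved the other way, at 29.4%, 27.6% and 26.9% against 31.1%, 33.6% and 34.3% (limma BH-adjusted p = 0.900 and 0.0114). SRSF1 ENST00000582730.6 was at 41.1%, 41.8% and 40.4% against 68.6%, 34.6% and 34.5%, and SRSF1 ENST00000258962.5 at 46.0%, 44.3% and 47.4% against 29.1%, 52.7% and 53.9%. For both, replicate 1 lay on the opposite side of the controls from its fellows, and the calls without it (limma BH-adjusted p = 8.78e-07 and 3.42e-07, against 0.819 and 0.895 with it) are those of 2 libraries. In replicate 1, SRSF1 ENST00000583741.1 was at 0.0618% (10.5% and 11.1% in its fellows) and SRSF4 ENST00000634348.1 at 2.00% (15.9% and 17.7%).

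Of the remaining members, SRSF5 ENST00000556184.5 was at 33.6%, 31.7% and 28.4% in HEK-293T with siNegative and at 18.3%, 27.2% and 26.3% with siHNRNPH1; in HT-1080 it lay the other way, at 19.2%, 17.3% and 18.6% against 23.2%, 23.1% and 20.0%. The groups did not overlap in either line, and neither difference passed with every library in (limma BH-adjusted p = 0.739 and 0.125). Without replicate 1 the HEK-293T usage log2 change was -0.33 and passed (limma BH-adjusted p = 0.0104). The SRSF5 transcript that passed in HEK-293T, ENST00000553369.5, is a minor one named after its values were seen, at 2.54%, 3.44% and 1.44% against 0.0811%, 1.23% and 0.394% (limma BH-adjusted p = 0.00415, and 0.000185 without replicate 1). That call held in 4 of the 6 fits with 1 library left out. SRSF9 was carried almost wholly by ENST00000229390.8, at 90.4% to 92.4% in the 4 group means, and SRSF6 mostly by ENST00000244020.5, at 77.7% to 85.3%. The SRSF6 call in HT-1080 was for ENST00000668808.1, also named after its values were seen, whose shares of 3.93%, 0.00% and 0.366% against 1.37%, 2.84% and 3.62% overlapped (limma BH-adjusted p = 0.0273). It held in 1 of the 6 fits with 1 library left out. SRSF4 ENST00000373795.7 was at 77.7% ± 3.06 and 76.7% ± 1.79 in HT-1080.

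The IsoSeq files list transcript models with their exons and hold no read counts, so a share here is a share of models that span an exon or intron, not of molecules. Each group has 1 pool, and no test was made. The labels call it pooled replicates and do not name them. If replicate 1 of HEK-293T siHNRNPH1 was in its pool, it could not be left out of these shares. The pools list 64705 (HEK-293T siNegative), 94847 (HEK-293T siHNRNPH1), 72186 (HT-1080 siNegative) and 68078 (HT-1080 siHNRNPH1) models in all, and in HEK-293T the siHNRNPH1 pool had more models at each of the 10 loci. At the 10 loci, 25 cassette exons (internal exons skipped by at least 1 other model) and 44 retained introns (introns of some models covered by an exon of others) reached 5% of the spanning models in some pool. Overlapping events with different ends were counted separately, so these are not counts of separate alternative regions. At SRSF7 the exons of 75, 111, 177, 768 and 808 nt were skipped by at most 1 model in any pool. SRSF7 had 8 exons and 8 introns, SRSF5 2 and 8, and SRSF4 7 and 4, whereas SRSF9 had 0 exons and 4 introns. SRSF6 had 2 models in all, both in the HEK-293T siHNRNPH1 pool, and gave no event. No genome of the files' build was used, so a stop codon could not be read and each exon is called by its length and not as a poison exon. For the same reason an unspliced intron is not taken as a sign of a degraded message.

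SRSF3 had a single cassette exon, of 456 nt, at chr6:36599821-36600276 (GRCh38.p13, plus strand), with the message skipping it in 7 of 16, 11 of 22, 8 of 15 and 7 of 13 spanning models (in the order HEK-293T siNegative, HEK-293T siHNRNPH1, HT-1080 siNegative, HT-1080 siHNRNPH1, used throughout). It was included in 3 of 16, 4 of 22, 3 of 15 and 3 of 13, or 18.8%, 18.2%, 20% and 23.1%. The 95% exact (Clopper-Pearson) intervals ran from 4.05% to 45.6%, 5.19% to 40.3%, 4.33% to 48.1% and 5.04% to 53.8%, and they cover counting error only. The intervals of the 4 pools overlapped and are wide, so they do not show that the pools were alike. The intron of 875 nt just after it was unspliced in 3 of 16, 3 of 22, 2 of 15 and 0 of 13 models, and the 0 of 13 allows a share of up to 24.7% by the same interval.

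SRSF7, on chromosome 2 (minus strand), kept introns most often around an internal region from chr2:38748654 to chr2:38749528. An intron of 875 nt spanning it was unspliced in 22 of 33, 20 of 47, 7 of 23 and 4 of 16 models. The shares were 66.7% (48.2% to 82%), 42.6% (28.3% to 57.8%), 30.4% (13.2% to 52.9%) and 25% (7.27% to 52.4%). The siHNRNPH1 pool was the lower of the pair in each line, and within each line the intervals overlapped. A 449-nt exon inside that intron (chr2:38748898-38749346) was included in 1 of 32, 4 of 45, 3 of 23 and 1 of 16 models. The 75-nt exon next to the intron was separate in 8 of 32, 21 of 45, 12 of 23 and 10 of 16 models; hardly any model skipped it (0, 1, 0 and 0), and most of the others held it inside a longer exon.

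SRSF1 (chromosome 17, minus strand) had a 921-nt intron near its 3′ end, chr17:58004002-58004922. It was spliced out in 7 of 43, 14 of 57, 3 of 25 and 5 of 18 models. The more common form in every pool left it unspliced, in 36 of 43, 42 of 57, 22 of 25 and 13 of 18. The unspliced shares were 83.7%, 73.7%, 88% and 72.2%, lower in the siHNRNPH1 pool of each line. Their intervals were 69.3% to 93.2%, 60.3% to 84.5%, 68.8% to 97.5% and 46.5% to 90.3%. These overlap within each line. SRSF2 (chromosome 17, minus strand) had a 104-nt cassette exon (chr17:76735772-76735875) included in 1 of 6, 2 of 11, 1 of 12 and 1 of 8 models. Its 613-nt intron on one side of that exon was unspliced in 4 of 9, 7 of 16, 5 of 16 and 1 of 10, and the 278-nt intron on the other side in 5 of 9, 8 of 16, 5 of 16 and 1 of 9.

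SRSF10 (chromosome 1, minus strand) had cassette exons of 54, 102 and 363 nt. The 54-nt exon was included in 37 of 47, 45 of 61, 22 of 27 and 17 of 22 models, and the 363-nt exon (chr1:23977911-23978273) in 11 of 48, 14 of 59, 4 of 26 and 4 of 21. The 102-nt exon was included in 3 of 26, 5 of 40, 1 of 14 and 3 of 15. For all 3 exons the intervals of the siRNA pools of each line overlapped, which does not show that the pools were alike. The intervals take models as independent draws. Models hold no read counts, so these shares cannot be set against the change of transcript use in the short reads. The models carry no Ensembl identifiers and were not matched to the transcripts of the short-read tables.

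**Figure D4:**
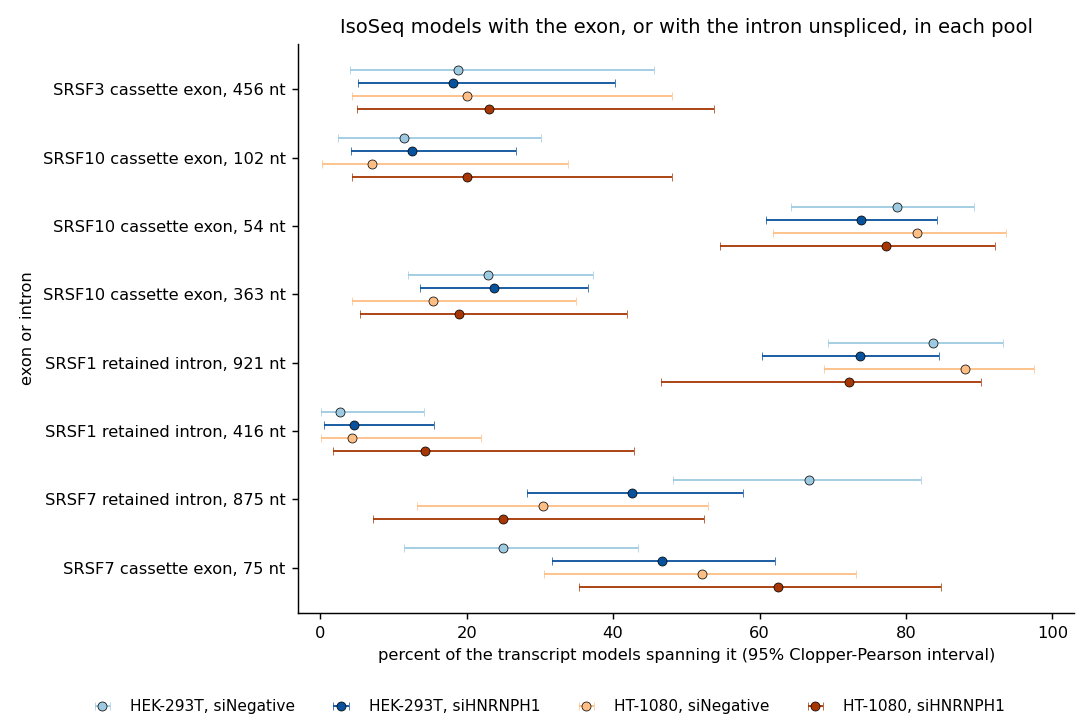
Share of the spanning IsoSeq models that include a cassette exon or leave an intron unspliced, for the cassette exons of SRSF3 and SRSF10 and the named events of SRSF1 and SRSF7, in each of the 4 pools, with 95% Clopper-Pearson intervals. The 875-nt SRSF7 intron runs from 66.7% in HEK-293T with siNegative down to 25% in HT-1080 with siHNRNPH1, and the siRNA pools of each line overlap in their intervals throughout.

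Among the other members, SRSF4 had the largest difference on a cassette exon: a 175-nt exon was included in 4 of 11 and 1 of 17 models in HEK-293T and in 1 of 10 and 1 of 5 in HT-1080. The share was 36.4% in the siNegative pool and 5.88% in the siHNRNPH1 pool of HEK-293T, on few models, with intervals of 10.9% to 69.2% and 0.149% to 28.7%. At SRSF5, a 285-nt intron was unspliced in 11 of 37, 23 of 54, 7 of 30 and 8 of 28 models, and a 1215-nt intron in 30 of 37, 43 of 56, 20 of 29 and 21 of 28. SRSF9 had 4 to 9 models in a pool, too few to set shares side by side. At SRSF11 a 292-nt intron was unspliced in 5 of 22, 13 of 45, 7 of 29 and 4 of 27 models.

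Other genes of the SR pathway were taken from 3 lists: 37 SR-related splicing proteins, 9 genes that are kinases of SR proteins or their nuclear importer, and 15 factors of nonsense-mediated decay. In HT-1080, 21 of 36 SR-related genes tested fell and 4 rose, with a median log2 fold change of -0.18 (0.01 over all genes tested, of which 65.3% passed and 32.6% passed as lower). TRA2B, a partner of SR proteins at exonic enhancers, fell by 0.63 (SE 0.04, edgeR BH-adjusted p = 7.84e-07) and SRSF8, a close relative of SRSF2, rose by 0.91 (SE 0.06, edgeR BH-adjusted p = 6.28e-07). In HEK-293T 0 of the 37 passed in edgeR. An unadjusted p under 0.05 was seen for 6, and the share of all genes at that threshold was not taken. Without replicate 1 of siHNRNPH1, 25 fell and 6 rose, where 61.8% of all genes passed and 31.3% passed as lower. The same shares of all genes stand beside the counts of the other two lists, with 10.0% (4.88% as lower) in HEK-293T with every library in. SRSF8 in HEK-293T without replicate 1 went the other way from HT-1080, at -0.35 ± 0.04 (edgeR BH-adjusted p = 1.54e-08).

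Of the kinases and importer, CLK2 fell in both lines, by 0.50 in HT-1080 and by 1.18 in HEK-293T on the log2 scale (SE 0.05 and 0.11; edgeR BH-adjusted p = 9.40e-06 and 0.00611, n = 3 per group). It was the single gene of that list to pass in HEK-293T, and without replicate 1 its change there was -1.20 ± 0.04. In HT-1080 SRPK1 (-0.40) and PRPF4B (-0.36) also fell and none of the 9 rose. Without replicate 1, 2 of the 9 fell and 5 rose in HEK-293T. Of the decay factors, 11 of 15 fell and 1, UPF2, rose in HT-1080, with a median of -0.29; the exon junction proteins MAGOHB (-1.18), MAGOH (-0.76) and RBM8A (-0.54) and the decay factor UPF3B (-0.78) fell most. In HEK-293T 2 of the 15 fell, the endonuclease SMG6 (-0.75; edgeR BH-adjusted p = 0.0151) and RBM8A (-0.60; edgeR BH-adjusted p = 0.0439), at -0.77 and -0.70 when replicate 1 was left out. Without replicate 1, 7 fell and 4 rose. The part of these genes in the SR changes was not tested.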

How the data were processed

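For the short reads the authors deposited expected counts for each transcript variant, made with RSEM per the labels; GRCh38.p13 is the build in the submitters' processing notes, and the aligner, versions, annotation and strandedness are not given in the sources used here. The IsoSeq files deposited by the authors give start and end coordinates of models, high-quality, collapsed and filtered per the file names. Expected counts were summed per gene, rounded and tested per line in edgeR 4.0.16 (R 4.3.3; filterByExpr, TMM, quasi-likelihood, BH over all genes); the interaction used 12 libraries. The SE of a log2 fold change is its absolute value divided by the square root of the test's F statistic. Usage was tested with diffSplice in limma 3.58.1 on voom values, per transcript; shares with an exact permutation test. DESeq2 1.42.0 was an alternative. IsoSeq loci were same-strand models overlapping the RefSeq gene span; SRSF1 in HEK-293T includes a few of a neighbour. All genes were named; transcripts needed a group mean of 10% of the gene, or a call with a shift of 5 points. The members and lists were chosen with earlier results of these data known. The edgeR gene and interaction tests and diffSplice were tried on simulated data. Those data had the same spread for every feature and no library that stood apart, unlike HEK-293T here. Replicates were not copies (chi-square per degree of freedom 1.78 to 848.0). Alternatives covered scaling, filter, tool, sample set and left-out replicates. A listed marker of HT-1080 is not reported here.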

Additional observations from a re-analysis of the deposited data

Results flagged for a closer look

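The response of 3 SR genes differed between HT-1080 and HEK-293T by the interaction test itself, which 19.0% of all genes tested passed. HT-1080 minus HEK-293T, the difference in log2 fold change was -0.68 for SRSF2, -0.78 for SRSF3 and -0.92 for SRSF7, each past the threshold (edgeR BH-adjusted p = 0.00219, 0.00355 and 0.000883). Leaving out the HEK-293T library that stood apart gave -0.62, -0.67 and -0.83, which passed too (edgeR BH-adjusted p = 1.51e-07, 4.43e-07 and 4.65e-08). In that fit 49.0% of all genes passed. HNRNPH1 itself was left at 234.1 to 394.3 CPM in HEK-293T and 228.5 to 231.5 in HT-1080, and its part in the difference was not tested.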

How the results depend on the processing

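The 8 SR genes called in HT-1080 numbered 8 with RLE scaling or DESeq2 and 8 with the replicate block, 9 by library size alone, and 7 with 12 libraries in 1 fit; the median log2 fold change of all genes there was 0.01 with TMM, 0.00 with RLE and 0.07 by library size. In HEK-293T the count of 0 became 1 (SRSF1) with 12 libraries in 1 fit, and ran from 0 to 9 with each library left out in turn. In that joint fit SRSF3 and SRSF7 in HEK-293T were at 0.00. With each library left out, SRSF9 in HEK-293T ran from -0.15 to 0.26 and SRSF11 from -0.38 to 0.01, each reversed without replicate 1 of siHNRNPH1. The 3 genes that differed between the lines became 3 to 8. The 2 HEK-293T transcripts with changed usage became 0 with edgeR's diffSpliceDGE, 0 among transcripts of at least 5% of the gene, and 0 to 26 with a library left out (26 without replicate 1 of siHNRNPH1). The 8 in HT-1080 became 3 with diffSpliceDGE and 4 to 10 with a library left out (4 without siHNRNPH1 replicate 3). SRSF10 ENST00000453840.7 in HEK-293T reversed to -0.07 with diffSpliceDGE, -0.03 among transcripts of at least 5%, and -0.07 without replicate 1 of siHNRNPH1. With a library left out, SRSF11 ENST00000484162.5 in HEK-293T ran from -0.36 to 0.21 (reversed without siHNRNPH1 replicate 1) and ENST00000370949.2 from 0.00 (without replicate 2) to 0.50. The cause was not tested. The deviations of same-numbered libraries correlated at 0.02 to 0.10 in HEK-293T (each best with its own number) and 0.00 to 0.09 in HT-1080 (not each). These low values do not settle whether equal numbers mark pairs. With the replicate block the counts were 0 and 8 genes, 3 between the lines, and 2 and 7 transcripts. IsoSeq events numbered 69, and 70 to 78 under the alternatives; 6 of 108 shares under an alternative moved beyond their interval. The few models per locus, 0 to 66, limit every IsoSeq share.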
